A study of Mus musculus with 7 samples.

Results

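The S100 genes encode small calcium-binding proteins, and 10 of them, S100a3, S100a4, S100a6, S100a8, S100a9, S100a10, S100a11, S100a13, S100a14 and S100a16, were described across 7 mouse esophageal epithelial cell lines. They were taken by gene symbol from a table of 24047 gene names. All 10 passed the filter on low counts and were tested among 13768 genes. RNA sequencing covered 3 lines carrying the missense allele p53R172H (mutant 1, 2 and 3), 2 lines of genotype p53 -/- (null 1 and null 3) and 2 wild-type lines (WT 1 and WT 2). The treatment label of all 5 mutant and null lines was 4NQO (4-nitroquinoline 1-oxide, an esophageal carcinogen), which the WT lines lack. All lines had a mixed strain background and were grown on plastic in keratinocyte medium (KSFM). No age or sex is given, and the labels do not say whether the lines came from separate animals, so the tests measure the spread between these lines.

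S100 proteins carry a pair of EF-hand motifs, helix-loop-helix folds that hold calcium. Most form dimers that change shape on binding calcium and then grip a partner protein, among them the annexins and non-muscle myosin. Some also leave the cell and act on receptors such as RAGE (Ager) and Tlr4. In squamous epithelium several S100 genes are part of the epidermal differentiation complex, a gene cluster that also holds the cornified envelope genes, and S100a8 and S100a9 are known to be induced there by injury and inflammation.

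Library totals ranged from 12751118 counts (WT 2) to 47000225 counts (mutant 1). Levels are given as CPM, counts scaled to a common library total with TMM factors. Trp53 stood at 172 to 254 CPM in mutant lines, at 4.71 and 8.73 CPM in null lines and at 193 and 212 CPM in WT lines. Xist was at 0.152 to 0.964 CPM in the 5 mutant and null lines and at 675 and 1653 CPM in WT lines, so p53 genotype, the 4NQO label and whatever sets this X-linked RNA cannot be told apart in a difference from WT. The Y-linked Ddx3y was at 67.4 to 77.0 CPM in mutant lines, 0.0304 CPM in null 1, 96.4 CPM in null 3, and 0.987 and 0.0812 CPM in WT lines. Of 8 squamous markers, 7 had counts in every line. Krt4 had 0.793, 0 and 0.0688 CPM (39, 0 and 3 counts) in mutant 1, 2 and 3. It had 1.37 and 9.72 CPM in null 1 and null 3 and 2.45 and 4.87 CPM in WT lines, so null 3 was highest. The summed level of the 8 was 6920 to 9935 CPM in mutant, 6236 and 10062 CPM in null and 27612 and 38239 CPM in WT lines. Krt5 and Krt14 held most of this sum. Not every marker followed it, and Trp63 averaged 345 CPM in mutant and 346 CPM in WT lines. Like several S100 genes below, the sum was lower in all 5 mutant and null lines than in WT lines. Between the null lines it was higher in null 1, while S100a6, S100a10, S100a11, S100a14 and S100a16 were each higher in null 3. The part of this sum in the S100 levels was not tested. In bulk RNA, fewer cells expressing a gene and less RNA per cell cannot be told apart.

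All 10 genes lie on mouse chromosome 3. In the RefSeq order (GRCm38.p6) 12 S100 genes stand side by side, from S100a1 over S100a13, S100a14, S100a16, S100a3, S100a2, S100a4, S100a5, S100a6, S100a7a and S100a8 to S100a9. A further 56 protein-coding genes, among them cornified envelope genes, separate this block from the neighbours S100a11 and S100a10. RefSeq start-site windows (GRCm38.p6, 250 bases before to 50 after a start) were found for 8 of the 10 genes, 12 windows in all, and for neither S100a10 nor S100a14. The 4 printed here belong to the genes with the widest range between lines (S100a4, S100a8, S100a9) and to the gene that passed the test (S100a11). Each runs from 120 bases before to 30 after the start, on the gene's own strand, with the TATA box TATAAA, any AP-1 site of the form TGANTCA and any GC box GGGCGG in capitals. They lie at chr3:90603650-90603799 (S100a4, plus strand), chr3:90668951-90669100 (S100a8, plus), chr3:90695692-90695841 (S100a9, minus) and chr3:93520376-93520525 (S100a11, plus).
S100a4: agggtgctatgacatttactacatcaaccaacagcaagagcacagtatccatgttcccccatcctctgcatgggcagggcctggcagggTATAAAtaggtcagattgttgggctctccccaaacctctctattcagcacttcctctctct
S100a8: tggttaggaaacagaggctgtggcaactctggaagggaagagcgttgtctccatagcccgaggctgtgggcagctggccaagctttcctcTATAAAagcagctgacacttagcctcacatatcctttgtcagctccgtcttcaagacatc
S100a9: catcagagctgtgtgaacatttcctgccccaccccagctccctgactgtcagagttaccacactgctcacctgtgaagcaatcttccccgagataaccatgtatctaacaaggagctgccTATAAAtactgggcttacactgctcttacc
S100a11: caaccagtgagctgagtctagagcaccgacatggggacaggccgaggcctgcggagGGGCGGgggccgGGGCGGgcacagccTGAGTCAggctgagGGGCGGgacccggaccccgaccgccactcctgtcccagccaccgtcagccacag

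The windows of the variable genes and of S100a11 held different letters. The TATA box stood 31 to 26 bases before the start in S100a4, 30 to 25 before it in S100a8, and at bases 1 to 6 after the RefSeq start in S100a9. It was also in 1 of the windows of S100a3. S100a11 had no TATAAA but 3 GC boxes (GGGCGG) and 2 AP-1 sites (TGANTCA), of which 1 lies farther from the start than the printed stretch. GC boxes were also in windows of S100a3, S100a9 and S100a16, and an AP-1 site in that of S100a16. Searched on both strands, TATAAA was found in 13.6% of all 32851 windows, GGGCGG in 35.7% and TGANTCA in 7.81%. A C/EBP site (TTGCNNAA, in 10.8% of all windows) was in the S100a9 window, and a p53 half-site (8.36% of all windows) in those of S100a9 and S100a3. S100a4, S100a6, S100a8, S100a11, S100a13 and S100a16 had neither of these. These matches describe the letters and are not shown to be bound.

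Levels fell into an abundant and a scarce set. Per kilobase of principal transcript (GENCODE M21 lengths), S100a6 was highest in each group, at 1373 ± 307 CPM per kb in mutant (SD, n = 3), 776 ± 94.2 in null (n = 2) and 2433 ± 330 in WT lines (n = 2). S100a10 followed at 1212 ± 87.3, 735 ± 109 and 1419 ± 169 CPM per kb in mutant, null and WT lines. In null lines it differed from S100a6 by less than the SD of either gene. In mutant lines the difference was less than the SD of S100a6 but more than that of S100a10. S100a11, S100a14 and S100a16 came next, in that order, with S100a16 at 128 ± 15.4 CPM per kb in mutant, 99.7 ± 9.04 in null and 216 ± 50.8 in WT lines. These 5 genes held 95.4 to 99.5% of the summed CPM of all 10 in every line. The other 5 differed in order between groups. In WT lines they lay between 4.91 CPM per kb (S100a3) and 10.7 CPM per kb (S100a9). Any pair of S100a9, S100a4, S100a8 and S100a13 differed there by less than the larger SD of the pair. In mutant lines S100a4 led the scarce set at 98.9 ± 63.6 CPM per kb, and in null lines S100a8 did, at 57.4 ± 54.4 CPM per kb.

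**Figure D1:**
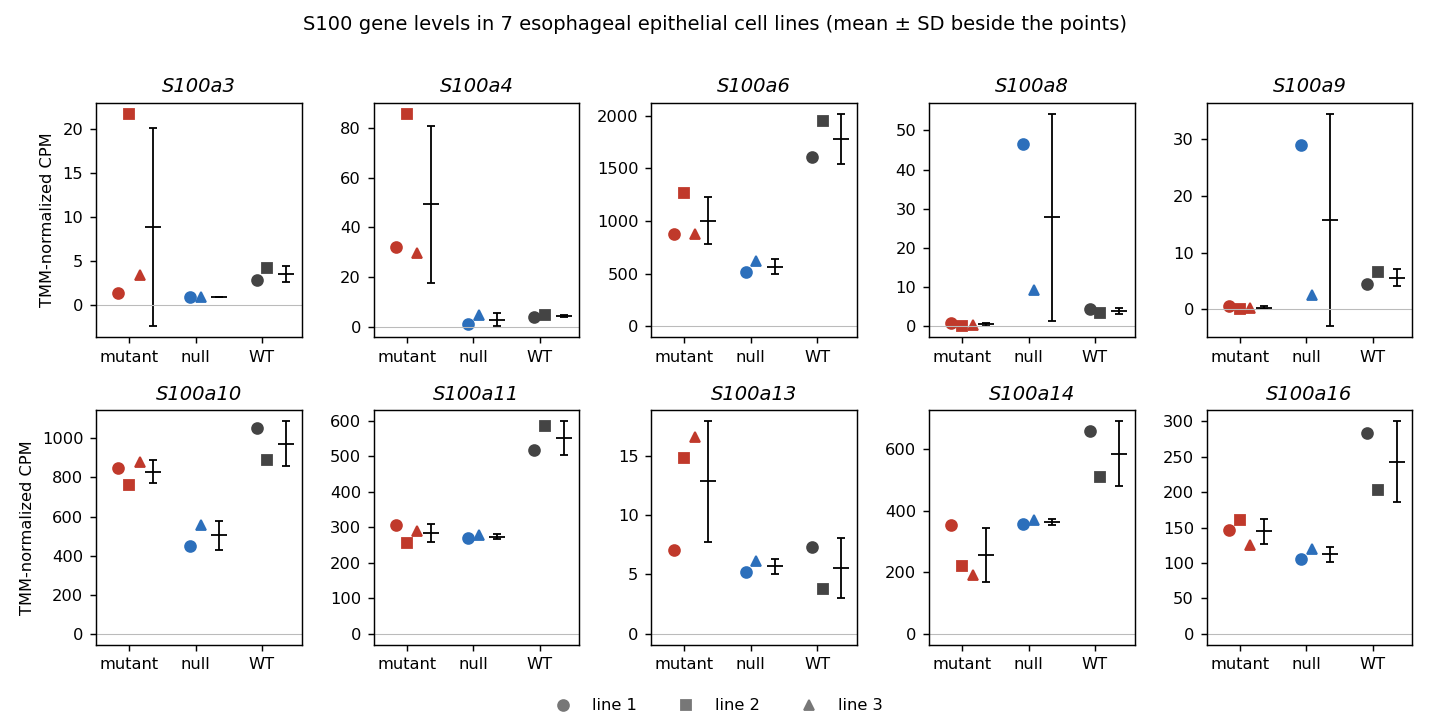
CPM of each of the 10 S100 genes (vertical axes, scaled per gene) in mutant, null and WT lines, 1 symbol per line, with the group mean ± SD beside the points. S100a6, S100a11, S100a14 and S100a16 lie lower in all 5 mutant and null lines than in both WT lines, S100a4 is high in the 3 mutant lines, and S100a8 is high in null 1.

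Set against WT, the mutant lines show how S100 RNA differs in cells with p53R172H and the 4NQO label from cells with neither. The abundant S100 genes were lower, S100a8 and S100a9 nearly absent, and S100a4 about 11.4-fold higher, but of the 10 genes only S100a11 passed the test. That is 1 of 10 genes, where 7.42% of all genes tested passed in either direction by edgeR's quasi-likelihood test (adjusted p under 0.05). An unadjusted p under 0.05 was found for 8 of the 10, against 30.5% of all genes. In 7 genes every mutant line lay below both WT lines, as in 25.7% of all genes, and in 1 gene every mutant line lay above them, as in 26.9%. The median log2 fold change was -0.79 over the 10 genes and 0.08 over all genes tested.

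S100a11, which binds annexin A1 and is a cornified envelope component, had 305, 255 and 289 CPM in mutant 1, 2 and 3, against 517 and 585 CPM in WT lines. The groups did not overlap, and the lines of a group lay close together. The log2 fold change was -0.96 (SE 0.15, edgeR adjusted p = 0.0260). This call was lost without mutant 2 (-0.91, adjusted p = 0.0748), without mutant 3 (-0.99, adjusted p = 0.0866), without WT 1 (-1.04, adjusted p = 0.117), without WT 2 (-0.87, adjusted p = 0.202) and with the replicate number as a block (-0.98, adjusted p = 0.133).

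The other abundant genes gave the same direction without passing, although DESeq2 called S100a6, S100a14 and S100a16 (adjusted p = 0.00297, 0.00106 and 0.00570). By that method 7 of the 10 genes were called, and 3197 of all 13768 genes. S100a6, calcyclin, had 876, 1263 and 872 CPM in the mutant lines, against 1608 and 1949 CPM in WT lines (log2 fold change -0.83, SE 0.23, edgeR adjusted p = 0.0742). S100a14, a gene of stratified epithelia, had 355, 222 and 191 CPM, against 661 and 511 CPM in WT lines (-1.19, SE 0.28, edgeR adjusted p = 0.0536). In S100a14 mutant 1 stood above the other mutant lines. This gene was called under 6 of 18 alternative settings, namely no filter, the filter of 5 CPM, DESeq2, the newer quasi-likelihood form, thinned libraries and leaving out mutant 1. S100a16 had 147, 161 and 126 CPM, against 284 and 203 CPM in WT lines (-0.75, SE 0.20, edgeR adjusted p = 0.0630). S100a10, the partner of annexin A2, had 847, 764 and 880 CPM, against 1054 and 890 CPM in WT lines. Its log2 fold change was -0.23 (SE 0.18, edgeR adjusted p = 0.419), and mutant 3 lay just below WT 2.

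S100a4, also called metastasin or fibroblast-specific protein, binds non-muscle myosin and is known for its rise in motile cells. It had 32.1, 85.8 and 29.8 CPM in mutant 1, 2 and 3, against 4.05 and 4.63 CPM in WT lines. Every mutant line was above every null and WT line, and mutant 2 was 2.87 times the lowest mutant line. The log2 fold change was 3.51 (SE 0.83, edgeR adjusted p = 0.0536), just outside the threshold. It was within the threshold under 8 of 18 alternative settings, among them DESeq2 (adjusted p = 1.61e-05), a fit of only mutant and WT lines (0.0241), leaving out null 1 (0.0288) and leaving out null 3 (0.0260). Without mutant 2 the log2 fold change was 2.82 (adjusted p = 0.104). S100a4 was outside the threshold also without mutant 1 or mutant 3, with limma-voom (adjusted p = 0.104) and with the replicate number as a block (edgeR adjusted p = 0.153). Its log2 fold change was 3.42 without WT 1 and 3.60 without WT 2.

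S100a8 and S100a9, whose proteins join into calprotectin, were at their lowest in mutant lines. S100a8 had 0.976, 0.0712 and 0.367 CPM in the mutant lines, or 48, 3 and 16 counts, against 4.39 and 3.41 CPM in WT lines. S100a9 had 0.549, 0.0237 and 0.115 CPM, or 27, 1 and 5 counts, against 4.49 and 6.58 CPM in WT lines. No mutant line reached a WT line in either gene, and mutant 2, with the most S100a4, had the least of both. The other mutant lines did not follow this order, as mutant 1 had more S100a4, S100a8 and S100a9 than mutant 3. The log2 fold changes were -3.03 (SE 1.02, edgeR adjusted p = 0.107) for S100a8 and -4.55 (SE 1.35, edgeR adjusted p = 0.0829) for S100a9. Without mutant 1 they were -4.14 (adjusted p = 0.0620) and -6.24 (adjusted p = 0.0517). DESeq2 called both genes, and S100a9 was also called by edgeR without null 3 (adjusted p = 0.0478).

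S100a13, a cofactor in the release of Fgf1 and Il1a from cells, had 7.06, 14.8 and 16.6 CPM in the mutant lines, against 7.31 and 3.73 CPM in WT lines. Mutant 1 lay within the WT range, and the log2 fold change was 1.21 (SE 0.50, edgeR adjusted p = 0.162). S100a3, best known from the hair cuticle, had 1.28, 21.8 and 3.40 CPM, against 2.86 and 4.14 CPM in WT lines. The log2 fold change was 1.33 (SE 1.13, edgeR adjusted p = 0.449), and -0.60 without mutant 2 (adjusted p = 0.604).

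**Figure D2:**
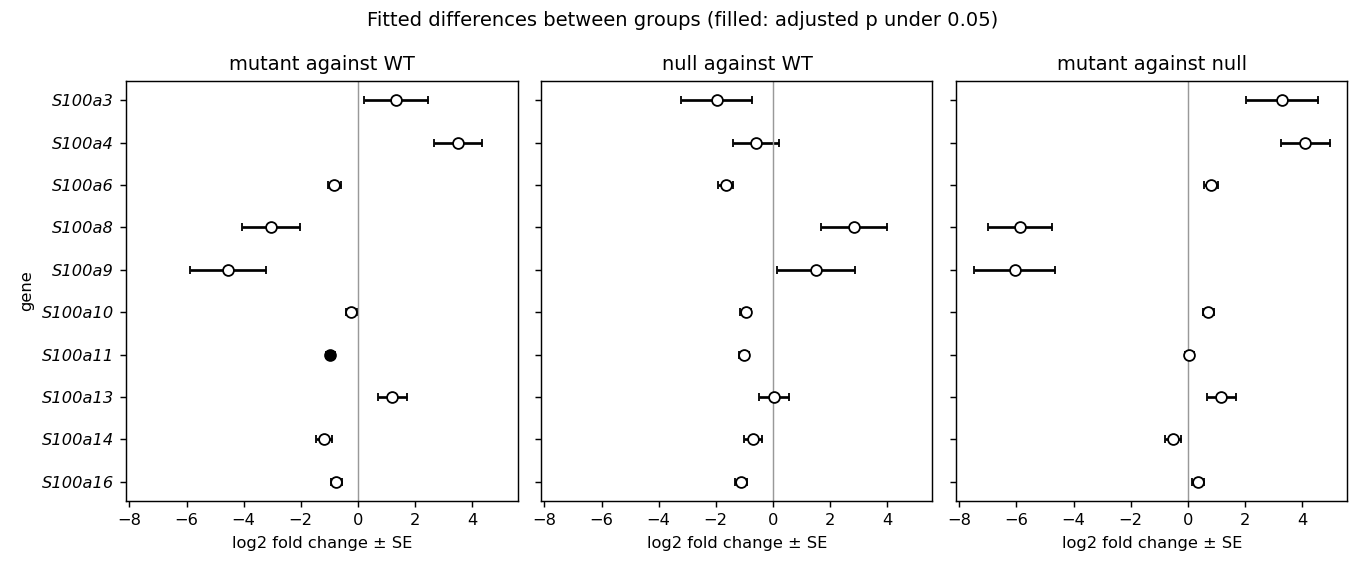
Log2 fold change with its SE (horizontal axes) of the 10 S100 genes in mutant against WT, null against WT and mutant against null, where positive means higher in the group named first. S100a11 in mutant against WT (-0.96) is the only filled point, and S100a8 and S100a9 lie at about -6 in mutant against null with wide errors.

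Set against WT, the null lines show how S100 RNA differs in cells with loss of p53 and the 4NQO label from cells with neither. The 5 abundant genes were again lower in both null lines than in both WT lines, while S100a8 was higher in both, and no S100 gene passed the test. By edgeR 0 of the 10 genes were called, where 0.138% of all genes were. Over all 13768 genes DESeq2 called 901 higher and 647 lower in null lines. Of the 10 it called 4 (S100a6, S100a10, S100a11 and S100a16), and limma-voom called 0. An unadjusted p under 0.05 was found for 5 of the 10, against 20.2% of all genes. In 6 genes both null lines lay below both WT lines (27.1% of all genes) and in 1 gene both lay above (29.1% of all genes). The median log2 fold change was -0.82 over the 10 genes and 0.06 over all genes.

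S100a6 had 519 and 616 CPM in null 1 and null 3, against 1608 and 1949 CPM in WT lines, or -1.65 as log2 fold change (SE 0.26, edgeR adjusted p = 0.0802). S100a10 had 451 and 556 CPM, against 1054 and 890 CPM in WT lines (-0.95, SE 0.20, edgeR adjusted p = 0.108). S100a11 had 270 and 278 CPM, against 517 and 585 CPM in WT lines (-1.01, SE 0.17, edgeR adjusted p = 0.0824). The null lines were close to each other in these 3 genes and apart from WT. S100a16 had 105 and 120 CPM, against 284 and 203 CPM in WT lines (-1.11, SE 0.22, edgeR adjusted p = 0.100). S100a14 had 357 and 372 CPM, against 661 and 511 CPM in WT lines (-0.69, SE 0.32, edgeR adjusted p = 0.279). Summed over the 10 genes the level was 2573, 2786 and 2409 CPM in mutant 1, 2 and 3, 1784 and 1966 CPM in null 1 and null 3, and 4147 and 4160 CPM in WT 1 and WT 2.

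S100a8 had 46.6 CPM in null 1 and 9.23 CPM in null 3, against 4.39 and 3.41 CPM in WT lines. Both null lines were above WT, but by unequal amounts, and the log2 fold change was 2.84 (SE 1.15, edgeR adjusted p = 0.239). Without null 1 it was 1.24 (adjusted p = 0.629). S100a9 had 29.1 CPM in null 1 and 2.47 CPM in null 3, against 4.49 and 6.58 CPM in WT lines. Null 1 alone was above WT and null 3 was below it. The fitted 1.51 for S100a9 (SE 1.38, edgeR adjusted p = 0.556) became -1.16 without null 1 (adjusted p = 0.720).

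S100a4 had 0.974 and 4.75 CPM in null 1 and null 3, against 4.05 and 4.63 CPM in WT lines, and null 3 lay just above the WT range. The log2 fold change was -0.61 (SE 0.81, edgeR adjusted p = 0.698), and 0.13 without null 1 (adjusted p = 0.941). S100a3 had 0.913 and 0.873 CPM, against 2.86 and 4.14 CPM in WT lines (-1.96, SE 1.24, edgeR adjusted p = 0.399). S100a13 had 5.23 and 6.11 CPM, between the WT lines at 7.31 and 3.73 CPM (0.03, SE 0.53, edgeR adjusted p = 0.979).

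Mutant and null lines have the 4NQO label in common, and setting one against the other contrasts the missense allele with loss of p53. The lines differ in more than p53: null 1, which held most of the S100a8 and S100a9 RNA, had 1 count of the Ddx3y RNA that the mutant lines and null 3 hold. The part of this in the contrast was not tested. The sharpest contrasts were in the scarce set. S100a4 and S100a3 were higher in all mutant lines, and S100a8 and S100a9 were higher in both null lines, while S100a11 was level. By edgeR 0 of the 10 genes were called, as were 0% of all genes. Over all 13768 genes DESeq2 called 213 higher and 391 lower in mutant lines. Of the 10 it called 6 (S100a3, S100a4, S100a6, S100a8, S100a9 and S100a10), and limma-voom called 0. An unadjusted p under 0.05 was found for the same 6 of the 10, against 14% of all genes. In 3 genes every mutant line lay below both null lines (15.1% of all genes) and in 6 every mutant line lay above (16% of all genes). This comparison uses the same mutant and null libraries as the comparisons with WT.

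S100a8 averaged 0.472 ± 0.461 CPM in mutant (SD, n = 3) and 27.9 ± 26.4 CPM in null lines (n = 2), or -5.87 as log2 fold change (SE 1.11, edgeR adjusted p = 0.258). S100a9 averaged 0.229 ± 0.281 CPM in mutant lines, against 15.8 ± 18.8 CPM in null lines (-6.06, SE 1.42, edgeR adjusted p = 0.268). The null SDs are as large as their means because null 1 held most of both RNAs. S100a4 averaged 49.2 ± 31.7 CPM in mutant lines, against 2.86 ± 2.67 CPM in null lines (4.11, SE 0.86, edgeR adjusted p = 0.258). S100a3 averaged 8.81 ± 11.3 CPM in mutant lines, against 0.893 ± 0.0281 CPM in null lines (3.30, SE 1.25, edgeR adjusted p = 0.329). All mutant lines exceeded both null lines in S100a4 and S100a3, by the most in mutant 2. Without mutant 2 the log2 fold change of S100a3 was 1.37. When each library was left out in turn, S100a4 ranged from 3.38 to 5.66, S100a8 from -6.97 to -4.27 and S100a9 from -7.76 to -3.39. The weakest change of each gene (3.38, -4.27 and -3.39) was found without null 1.

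Among the abundant genes, S100a6 averaged 1004 ± 224 CPM in mutant lines, against 567 ± 68.8 CPM in null lines (log2 fold change 0.82, SE 0.24, edgeR adjusted p = 0.287). S100a10 averaged 830 ± 59.8 CPM in mutant lines, against 504 ± 74.6 CPM in null lines (0.72, SE 0.19, edgeR adjusted p = 0.275). S100a11 averaged 283 ± 25.7 CPM in mutant lines, against 274 ± 6.11 CPM in null lines (0.05, SE 0.15, edgeR adjusted p = 0.915). S100a6 and S100a10 were thus above null lines in every mutant line, whereas the ranges of S100a11 overlapped. The log2 fold changes of S100a13, S100a14 and S100a16 were 1.18, -0.51 and 0.36 (SE 0.50, 0.28 and 0.20), with edgeR adjusted p = 0.362, 0.446 and 0.442.

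Along the chromosome, some neighbouring genes differed in the same direction and others did not. S100a13 had more RNA in mutant 2 and 3 than in WT lines, its next neighbours S100a14 and S100a16 less, and S100a4 lies between S100a3 and S100a6, of which S100a6 was lower than WT in every mutant line. In mutant 2, S100a3, S100a2 and S100a4, which stand in a row, were each at their highest of all 7 lines. S100a2, which in human is a p53-regulated gene of keratinocytes, had 3.08 CPM (130 counts) in mutant 2, 0.0814 and 0.413 CPM in mutant 1 and 3, 0.304 CPM in null 1 and 0.374 and 0.325 CPM in WT lines. It had 0 counts in null 3, which allows up to 0.114 CPM (3 counts, counting error only). S100a3 and S100a2 share a stretch of the same strand in GENCODE M21, so reads could be split between them. Chtop, the protein-coding gene before the block, was at 150 to 166 CPM in mutant, 120 and 131 CPM in null and 103 and 113 CPM in WT lines.

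**Figure D3:**
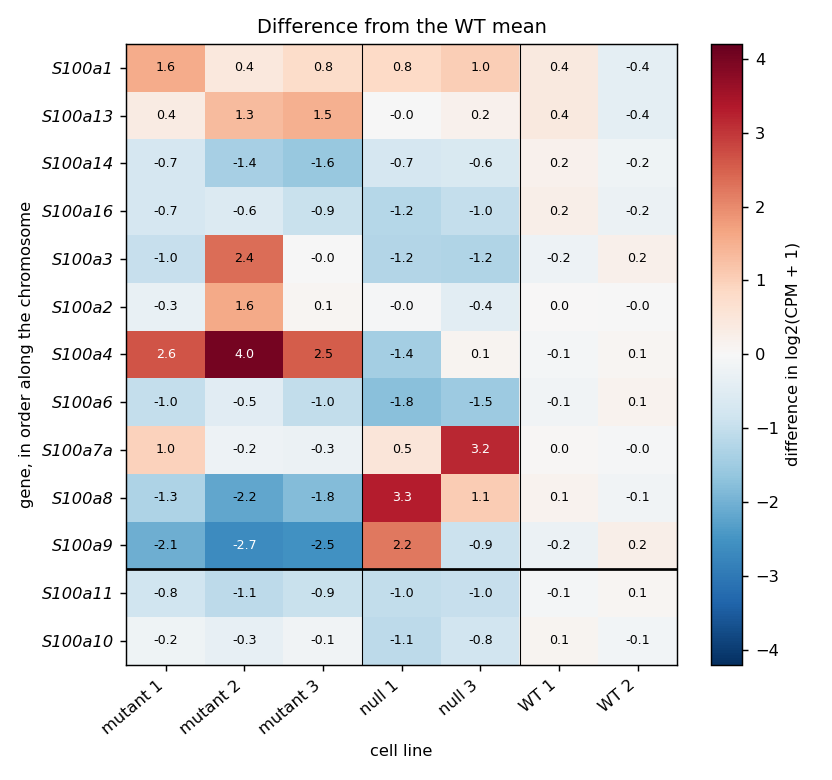
Difference in log2(CPM + 1) from the WT mean for 13 S100 genes (rows, in RefSeq order along the chromosome, the heavy line marking the gap before S100a11) in the 7 lines (columns, grouped as mutant, null and WT). Mutant 2 is high in S100a3, S100a2 and S100a4, null 1 is high in S100a8 and S100a9, and S100a6, S100a11, S100a14 and S100a16 are below 0 in all 5 mutant and null lines.

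By the root mean square difference of centred log2(CPM + 1) over the 7 lines, the closest genes of the 10 were S100a11 and S100a16 (0.27), S100a10 and S100a16 (0.28) and S100a6 and S100a16 (0.32). S100a8 and S100a9 were 0.66 apart, and S100a4 and S100a8 were farthest, at 3.49. Outside the family, the 3 genes nearest to S100a4 were Pla2g7 (0.53), Peli2 (0.54) and C1qtnf3 (0.63), among 10071 named genes with a mean of at least 5 CPM. Pla2g7 had 64.5, 73.7 and 50.1 CPM in mutant lines, 1.61 and 10.8 CPM in null lines and 2.69 and 6.09 CPM in WT lines, so it was likewise highest in mutant 2. Nearest to S100a8 were Ildr1 (0.62), Entpd2 (0.71) and Kcnk6 (0.76), each with its highest level in null 1. Nearest to S100a14 were Ankrd44, Cish and Tpm1 (0.13, 0.14 and 0.15). These distances describe 7 lines of 3 groups and carry no test.

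S100a4 marks fibroblasts, and S100a8 and S100a9 neutrophils, so markers of those cells are given beside them. The summed level of 8 fibroblast markers was 567, 9.73 and 376 CPM in mutant 1, 2 and 3, 8.03 and 420 CPM in null 1 and null 3, and 5.61 and 8.20 CPM in WT lines. Mutant 2, with the most S100a4, had a fibroblast sum just above those of WT lines. Of the 8 markers it had Col1a2 and Lum at 0 (Lum had 1 count in all 7 lines together), Col3a1, Pdgfrb and Thy1 at 0.0712 to 0.214 CPM, Dcn at 0.831 CPM (0 and 0.162 CPM in WT lines), Col1a1 at 3.37 CPM (0.782 and 2.03 CPM in WT lines) and Pdgfra at 5.15 CPM (4.80 and 3.25 CPM in WT lines). By contrast, null 3 had a high sum and 4.75 CPM of S100a4. In mutant 1 and 3 both values were high, and their part in the level of S100a4 there was not tested. Of 13 myeloid and neutrophil markers 11 are in the table. Cd68, at 22.5 to 91.8 CPM in all lines, held most of their sum, which was 49.1, 70.5 and 92.1 CPM in mutant, 32.7 and 24.0 CPM in null and 74.8 and 79.5 CPM in WT lines. The other 10, a grouping chosen after their values were seen, summed to 0.0949 to 1.06 CPM in mutant, 0.639 and 1.44 CPM in null and 0.568 and 0.714 CPM in WT lines. In null 1, with the most S100a8 and S100a9, the 10 had 21 counts in all: 11 of Cxcr2, 3 of Itgam, 2 each of Ptprc, Mpo and Csf1r and 1 of Lyz2, with Csf3r, Elane, Ngp and Camp at 0. Csf3r and Ngp were at 0 in all 7 lines. Cxcr2, a neutrophil receptor, was at 0.335 CPM in null 1 and 0 in null 3, at 0 to 0.0229 CPM in mutant lines, and at 0.612 and 0.487 CPM in WT lines.

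**Figure D4:**
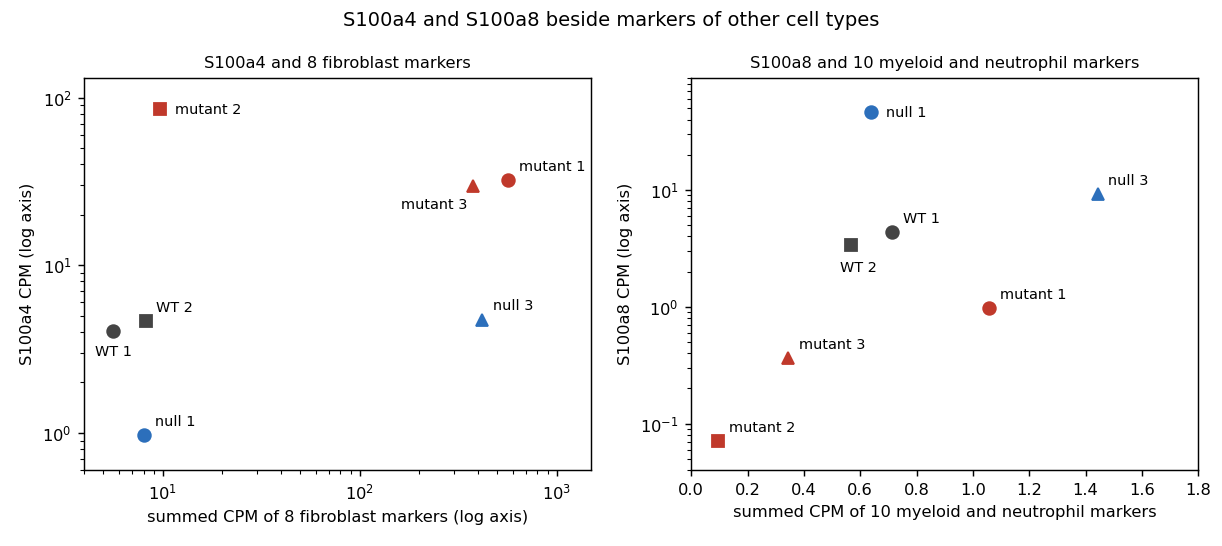
Level of S100a4 against the summed CPM of 8 fibroblast markers (left, both axes log) and of S100a8 against the summed CPM of 10 myeloid and neutrophil markers without Cd68 (right, vertical axis log), 1 point per line. Mutant 2 has the highest S100a4 (85.8 CPM) at a fibroblast sum of 9.73 CPM, and null 1 has the highest S100a8 (46.6 CPM) at a myeloid sum of 0.639 CPM.

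Beyond the 10 genes, 7 other S100 names in the table had counts in at least 1 line. S100a7a, an antimicrobial relative from inflamed skin, had 2.16, 0.380 and 0.344 CPM in mutant lines, 1.28 and 13.5 CPM in null 1 and null 3 and 0.646 and 0.568 CPM in WT lines, so its peak was in null 3 and not in null 1. S100a1, the cardiac form, had 1.83 to 5.08 CPM in mutant, 2.68 and 3.23 CPM in null and 1.73 and 0.568 CPM in WT lines. S100z had 56 counts in all 7 lines together, and S100b, S100a5 and S100g had 5, 4 and 3, too few to test. Of the 4 tested, including S100a2, none was called in any comparison by edgeR, and each had an adjusted p of at least 0.233. An unadjusted p under 0.05 was found for 0 in mutant against WT (30.5% of all genes). It was found for 1, S100a7a, in null against WT (20.2% of all genes) and in mutant against null (14% of all genes).

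Partner genes came from a list of known binders of S100 proteins. Of 11 tested, 1 fell and none rose in mutant against WT, near the share of 7.42% called over all genes. That gene was Anxa1, annexin A1, the partner of S100a11, with 921, 310 and 487 CPM in mutant lines against 3844 and 2482 CPM in WT lines (log2 fold change -2.47, SE 0.48, edgeR adjusted p = 0.0373). It had 2087 and 1341 CPM in null lines, above every mutant line, whereas S100a11 was level between these groups. In null against WT 1 fell and none rose, where 0.138% of all genes were called. That gene was Trp53, which S100 proteins are known to bind. Its fall is set by the p53 -/- genotype of these lines and says nothing about the partners. In mutant against null none was called. The smallest p were those of Trp53 (5.06, SE 0.37, edgeR adjusted p = 0.0555), again set by genotype, and Anxa1 (-1.58, SE 0.47, edgeR adjusted p = 0.287). An unadjusted p under 0.05 was found for 4 of 11, Trp53 among them, against 14% of all genes. Medians were -0.41, -0.39 and -0.47 over the partners in mutant against WT, null against WT and mutant against null, beside 0.08, 0.06 and 0.02 over all genes. Anxa2 and Il1a, partners of S100a10 and S100a13, were picked after their values were seen. Anxa2 had 1387, 946 and 1049 CPM in mutant, 483 and 1051 CPM in null and 1744 and 1883 CPM in WT lines. It was lowest in null 1, as were S100a10, S100a6 and S100a16, so this is not particular to the pair. The other null line, at 1051 CPM of Anxa2, lay above the mutant lines at 946 and 1049 CPM. In S100a10 the null lines lay below every mutant line. Il1a had 48.0, 1.31 and 16.2 CPM in mutant, 198 and 146 CPM in null and 364 and 292 CPM in WT lines.

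Of 4 receptor genes edgeR called none in any comparison. An unadjusted p under 0.05 was found for 1 in mutant against WT (Ager), against 30.5% of all genes. It was found for 0 in null against WT (20.2% of all genes) and 0 in mutant against null (14% of all genes). Ager, which encodes RAGE, had 1.14, 0.356 and 0.528 CPM in mutant, 1.03 and 1.06 CPM in null and 1.70 and 3.00 CPM in WT lines. Bsg, basigin, had 520 to 570 CPM in mutant, 548 and 670 CPM in null and 388 and 540 CPM in WT lines. Cd36 was at no more than 0.70 CPM in any line. Of 7 genes whose proteins fuse an S100-type domain to repeats, Rptn and Tchh were tested and neither was called. Tchh had an unadjusted p under 0.05 in mutant against WT, as had 30.5% of all genes. Tchh, trichohyalin, had 20.8, 53.1 and 31.8 CPM in mutant, 22.9 and 17.8 CPM in null and 16.2 and 12.4 CPM in WT lines (1.30 in mutant against WT, edgeR adjusted p = 0.0980). Rptn had 5.13, 0 and 0 CPM in mutant, 9.71 and 18.8 CPM in null and 12.6 and 27.4 CPM in WT lines.

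The cornified envelope and related genes between the S100 blocks gave 3 calls lower and none higher of 9 tested in mutant against WT, with a median log2 fold change of -2.16. Over all 13768 genes 568 were called lower and 454 higher, with a median of 0.08. The 3 were Sprr2d (-9.32, SE 1.33, edgeR adjusted p = 0.0230), Sprr3 (-4.70, SE 0.67, edgeR adjusted p = 0.0231) and Pglyrp4 (-5.59, SE 1.18, edgeR adjusted p = 0.0429). Pglyrp4, a peptidoglycan recognition gene and the next protein-coding neighbour of S100a9, had 0.0610, 0 and 0.0459 CPM in mutant, 2.31 and 0.494 CPM in null and 1.73 and 2.11 CPM in WT lines. Sprr2d had 0.325, 0.0237 and 0.115 CPM in mutant, 124 and 9.0 CPM in null and 111 and 98.7 CPM in WT lines. Sprr3 had 0.549, 0.475 and 1.84 CPM in mutant, 4.53 and 5.88 CPM in null and 19.8 and 30.04 CPM in WT lines. All 3 genes were lowest in mutant lines. Sprr2d, Pglyrp4, Sprr1a, Sprr1b and Ivl were higher in null 1 than in null 3, and Sprr3, Lor, Lce3c and Pglyrp3 were higher in null 3. None of the 9 was called in null against WT (median -0.45, 2 at an unadjusted p under 0.05, against 20.2% of all genes, the smallest being Ivl and Sprr3) or in mutant against null (median -2.38, 4 at an unadjusted p under 0.05, against 14% of all genes, the smallest being Sprr2d and Pglyrp4, at -8.67 and -5.14).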

How the data were processed

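Polyadenylated RNA was made into stranded libraries (TruSeq Stranded mRNA), per the labels' protocols. The table the authors deposited holds raw counts, 1 row per gene name. Alignment tool and build were STAR 2.5.1b and mm9, per the submitters' processing notes. How reads were counted, with which annotation and whether by strand, is not given in the sources used here. Counts of the divergent S100a1 and S100a13, of the overlapping S100a3 and S100a2, and of genes with processed copies such as S100a11, are therefore uncertain. A total of 92 spike-in names without counts were left out, and 27 date-like names were kept in the fit.

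Groups came from the sample titles. All 7 libraries entered one fit with edgeR 4.0.16 (R 4.3.3): TMM factors, the default filter, the quasi-likelihood F test in the version's default form and Benjamini-Hochberg adjustment over 13768 genes at 0.05. SEs were derived from the fold change and F. The fit was tested on simulated data. Alternatives were RLE and upper-quartile factors, testing unfiltered genes, requiring 5 CPM in at least 2 libraries, DESeq2 1.42.0, limma 3.58.1 (voom), the newer and the robust quasi-likelihood form, fits of only the groups compared, thinning to 12751118 counts, omission of single libraries and a replicate block. Libraries of 1 group were distinct samples (chi-square over degrees of freedom 56.4 to 243). Floors cover counting error only. The members and gene lists were chosen with earlier results of these data known.

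Named were the 10 S100 genes, other S100 genes with counts, up to 4 called genes per list and comparison or else those with the smallest p, and the 3 genes nearest to S100a4, S100a8 and S100a14. Sequences come from RefSeq (GRCm38.p6) and transcript lengths from GENCODE M21, not from the build of the counts.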

Additional observations from a re-analysis of the deposited data

How the results depend on the processing

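Of the 10 S100 genes, 1 was called in mutant against WT, and 3 were without a filter, with a filter of 5 CPM, with the newer quasi-likelihood form and with thinned libraries, 2 in a fit of only these groups, 7 by DESeq2, 0 with the replicate block and 0 to 3 when each library was left out. DESeq2 called 4 in null against WT and 6 in mutant against null, and all other alternatives 0. Among all genes tested, the mutant and WT lines gave 1022 calls, 3197 by DESeq2, 0 with the replicate block (2887 at an unadjusted p under 0.05) and 0 to 1420 when a library was left out. In null against WT 19 were called, 77 without a filter, 1548 by DESeq2, 55 with the newer form, 0 by limma-voom (2155 at an unadjusted p under 0.05), 0 with the replicate block (1454) and 0 to 55 when a library was left out. In mutant against null 0 were called, 1 with RLE factors, upper-quartile factors, a filter of 5 CPM or the newer form, 2 without a filter, 604 by DESeq2 and 0 to 22 when a library was left out. Over all genes, mutant against WT gave 1136 calls of 18567 without a filter and 1191 of 10884 with the filter of 5 CPM. The newer form gave 1335 of 13768, thinned libraries 1149 of 12773 and a fit of only mutant and WT lines 1521 of 13425. The cause of these differences was not tested. The log2 fold change of S100a13 in null against WT turned to -0.044 with limma-voom, -0.033 with the newer form, -0.048 with thinned libraries and -0.19 with the replicate block, and ranged from -0.37 to 0.60 when a library was left out. Over the same omissions S100a3 ranged from -0.60 to 1.83 in mutant against WT, S100a4 from -2.15 to 0.13 and S100a9 from -1.16 to 2.40 in null against WT, and S100a11 from -0.028 to 0.11 in mutant against null. No other direction changed among the 10 genes under these alternatives. Deviations from the group mean had r of -0.34 to 0.15 between same-numbered libraries. In a group of 2 lines these deviations mirror each other, so r cannot decide whether the numbers pair the lines. Depth limits S100a8 and S100a9 in mutant lines, where single libraries held 1 to 48 counts.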
